A study of Mus musculus with 8 samples.

Results

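The complement C1q gene cluster of the mouse comprises C1qa, C1qb and C1qc, which lie side by side on chromosome 4 and are all transcribed from the minus strand. Accessible regions of the cluster were taken as every peak within the span of the 3 genes and 30 kb on each side (mm10, GENCODE M21 gene models, chr4:136850129-136928803), with peaks of different libraries merged where they shared at least 1 base. This gave 2 merged regions of 82424 in the whole series, made of 8 peaks in all, 1 region at the start of C1qc and 1 at the start of C1qa. The peaks came from ATAC-seq, an assay that marks accessible chromatin by transposase insertion. The 8 libraries were of alveolar macrophages (AMs), the resident macrophages of the airspaces, sorted from the lavage of adult mice. The sample titles say only AMs. The main text of the study calls these cells mature, but a legend of its supplementary figures calls the KO cells immature. The 4 KO libraries (replicates 1_2, 1_3, 2 and 3) came from Cd11cCre+ Rxrab fl/fl animals, in which Cre under the CD11c promoter removes the retinoid X receptors RXRα and RXRβ from CD11c-expressing cells. The 4 WT libraries (replicates 1_2, 1_3, 3 and 4) came from Cre-negative Rxrab fl/fl controls, so both groups carried the floxed alleles. It is not stated in the sources used here if the KO (or WT) libraries named 1_2 and 1_3 were made from separate animals, so p-values measure only the spread between libraries, which may be technical.

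C1q is the recognition molecule of the classical complement pathway. Its A, B and C chains, products of C1qa, C1qb and C1qc, assemble into a hexameric bundle that binds antibody-coated surfaces and dying cells and activates the proteases C1r and C1s. Unlike most complement proteins, which come from the liver, C1q is made mainly by macrophages and dendritic cells, and it marks many tissue macrophages other than AMs.

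The lists held 60363 to 72484 peaks, and no read totals. The number of tags (read ends, extended by the authors) over a peak summit was worked back from each peak's fold and p-value, and the tags per window expected by chance gave the relative depth, which ran from 1.12 background tags in KO 3 to 2.26 in WT 1_3. At these depths a summit needed 6 to 9 tags to be listed, and a missing peak says only that the threshold, or the smallest listed width of 200 bp, was not reached. Promoters of T cell and erythroid markers had no peak in any library (0 of 5 and 0 of 3 genes), and B cell markers had at most 1 of 4. Of the AM markers, 6 of 8 had a promoter peak in every library, and Krt79 and Chil3 had none. Neutrophil markers had 1 to 2 of 5, epithelial markers 3 of 4 (Sftpc none) and endothelial markers 1 to 2 of 3 (Cdh5 none). The open epithelial promoters were those of Epcam, Cdh1 and Scgb1a1, and the authors count Cdh1 among the AM-core genes. Pecam1 was the endothelial marker open in every library. Of 12 markers of interstitial or monocyte-derived macrophages, 6 to 8 had one per library, and Folr2, Lyve1, Cd163 and Tmem119 had none. Their summed level, in tags per background tag, was 175 to 215 in KO and 186 to 240.3 in WT. In these bulk libraries, fewer cells with an open site and a less open site in each cell cannot be told apart.

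The sequences in front of C1qc and C1qb are shown because the first lies under the only recurrent peak of the cluster and the second under none. Both are from the RefSeq promoter table (GRCm38, the build of the files), read on the minus strand, 5′ to 3′, and end just before the more upstream of the RefSeq and GENCODE starts. The capitals mark a match to the PU.1 motif GAGGAAGT and a match to the nuclear receptor half-site AGGTCA, both in reverse orientation. The table held 2 of the 3 genes, and C1qa was not among them.
C1qc, chr4:136893066-136893164: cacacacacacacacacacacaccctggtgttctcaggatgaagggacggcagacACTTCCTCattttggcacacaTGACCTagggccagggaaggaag
C1qb, chr4:136886201-136886450: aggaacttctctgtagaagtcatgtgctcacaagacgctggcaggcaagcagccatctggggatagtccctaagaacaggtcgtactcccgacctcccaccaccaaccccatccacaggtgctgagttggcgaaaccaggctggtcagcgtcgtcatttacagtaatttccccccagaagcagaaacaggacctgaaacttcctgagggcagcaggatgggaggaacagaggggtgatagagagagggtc

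C1qc, the gene of the C chain, was the only member of the cluster with a recurrent peak, open at its start site in 3 of 4 KO and 4 of 4 WT libraries and weak in all of them. The merged region, chr4:136892876-136893228 (353 bp), covers the GENCODE start at 136893065, the upstream bases shown above and part of the first exon. Summits held 14 tags in KO 1_3, 9 in KO 2 and 15 in KO 3, and KO 1_2 had no peak. They held 13 tags in WT 1_2, 21 in WT 1_3, 15 in WT 3 and 19 in WT 4. The lowest value belonged to KO 2 and the highest to WT 1_3, the deepest library, and the genotypes overlapped. Divided by background tags, the levels were 8.49, 6.53 and 13.3 in KO 1_3, 2 and 3, and 9.03, 9.31, 9.39 and 13.4 in WT 1_2, 1_3, 3 and 4. On this scale KO 3 and WT 4 were the highest libraries, and the range of the KO values held every WT value but that of WT 4. The mean was 9.45 ± 3.50 (SD, n = 3) in KO and 10.3 ± 2.08 (SD, n = 4) in WT.

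**Figure D1:**
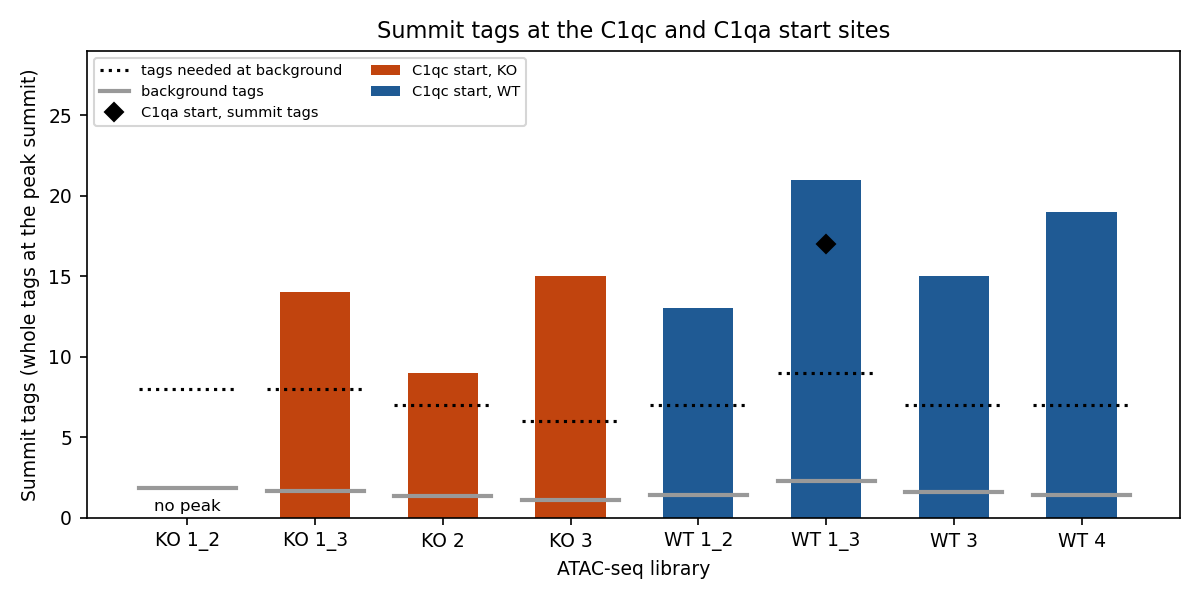
Summit tags (vertical axis, tags) at the C1qc start (bars, KO in orange and WT in blue) and at the C1qa start (black diamond) in each of the 8 libraries (horizontal axis), with the tags needed for a call at the library's background (dotted line) and the background tags (grey line). The 7 C1qc values run from 9 to 21 tags, KO 1_2 has no peak, and the single C1qa value is 17 tags in WT 1_3.

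Among the 7 libraries that list it, the C1qc peak did not differ between genotypes beyond their spread. Over the 7 libraries that list it, limma gave a log2 KO minus WT of −0.18 (SE 0.24, 95% interval −0.67 to 0.31, adjusted p = 0.718), in a fit of 48411 regions of which 10.1% were called. An exact permutation of the same 7 values gave p = 0.514, two-sided, where the smallest p the 35 labelings allow is 0.0286. Both leave out KO 1_2 because it had no peak, so they do not cover its level. With KO 1_2 entered at its smallest called tag number, the difference was −0.28 (SE 0.28, limma adjusted p = 0.598). That number is 9, where 8 tags are needed at its background, and a lower true level would make the difference more negative. Leaving out KO 2 turned the 7-library difference to 0.045 (limma adjusted p = 0.952). Occupancy was not tested, since with 7 of 8 libraries occupied Fisher's exact test can give only p = 1.

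KO 1_2, which lacked the C1qc peak, had the shortest list of peaks. Its depth was 1.86 background tags, the second highest, and it needed 8 tags at background. At the levels of the other libraries its C1qc summit would have held 12.1 tags at the lowest level and 17.3 at the median. Those levels come only from libraries that list the peak, so they may overstate KO 1_2. The cause of the absence was not tested. KO 1_2 was the missing library in 912 of the 4737 regions found in exactly 7 libraries (19.3%). The share was higher for WT 4 (1110, 23.4%), near this for KO 2 (857, 18.1%) and lowest for WT 1_3 (92, 1.94%). The 912 regions without KO 1_2 had a median of 18 tags (quartiles 16 and 24), against 15 for C1qc. With every list shortened to the 60363 peaks of KO 1_2, the shortest, C1qc was still listed in 6 of the other 7 libraries, KO 2 being lost.

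Within each list the C1qc peak stood among the weaker ones. Ranked by p-value from the weakest, it lay at the 12.5, 0.622 and 23.1 percentile in KO 1_3, 2 and 3, and at the 8.66, 25.3, 15.4 and 28.3 percentile in WT 1_2, 1_3, 3 and 4. Against promoter peaks alone, it had fewer tags than nearly all of them, its percentile running from 0.0594 in KO 2 to 7.06 in WT 4. The median promoter peak held 91 to 119 tags, 4.84 to 10.9 times as many. Fold over background was 4.20 to 8.27 and −log10 q was 3.62 to 13.6, with KO 2 at the low end of both and WT 4 at the high end.

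The peaks were narrow and centred on the GENCODE start. The RefSeq start lies 151 bp downstream of it, at 136892914, and only the KO 1_3 peak reaches that far. Widths were 214 to 303 bp, where the lists had medians of 348 to 378 bp. Summits lay between 68 bp downstream (KO 3) and 47 bp upstream (WT 1_3) of the GENCODE start. The PU.1 motif match, 37 to 44 bp upstream of the GENCODE start, and the half-site match, 18 to 23 bp upstream, were both inside all 7 peaks. Counted from the RefSeq start, their far ends lie 195 and 174 bp upstream.

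**Figure D2:**
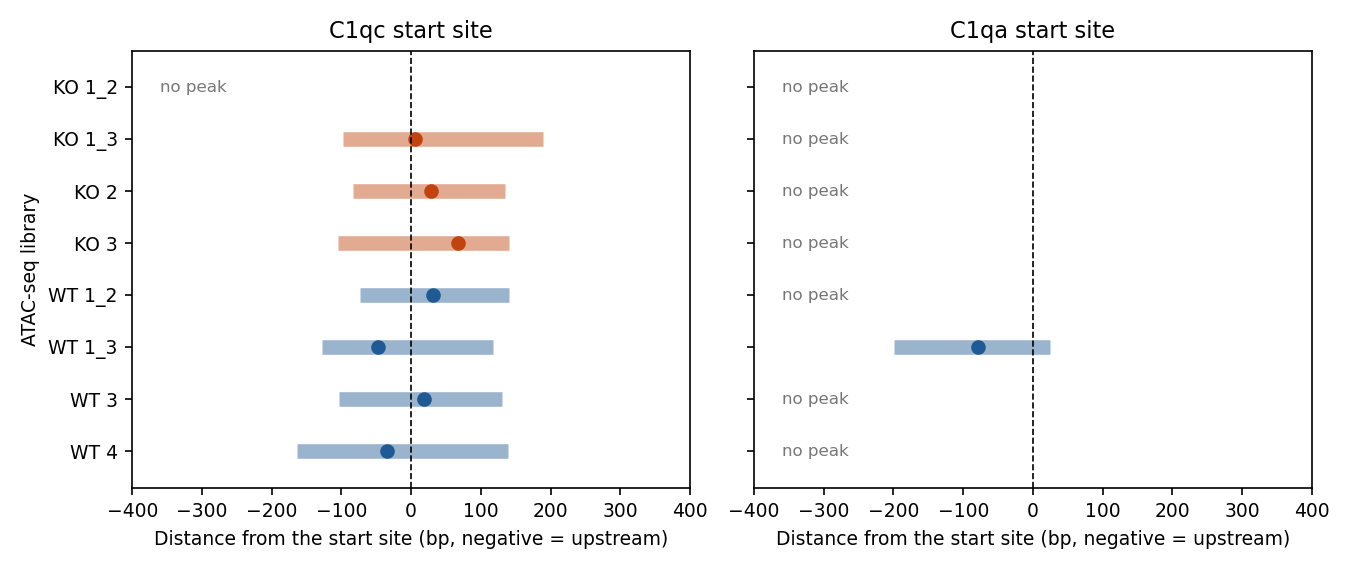
Peak extents (bars) and summits (dots) by library (vertical axis), KO in orange and WT in blue, against distance in bp from the GENCODE start of C1qc (left) and C1qa (right), with upstream as negative. The 7 C1qc peaks straddle the start with summits from 68 bp downstream to 47 bp upstream, and the single C1qa peak in WT 1_3 has its summit 79 bp upstream.

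PU.1, encoded by Spi1, is the pioneer factor of myeloid enhancers, and RXR heterodimers bind pairs of AGGTCA. Motifs were searched on both strands in the 300-base RefSeq promoters of C1qc and C1qb and within 100 bp of the C1qc summit. The PU.1 letters GAGGAAGT, found once at chr4:136893102-136893109, occur in 3.20% of 32851 promoters and in 10.7% of 72711 accessible regions of equal window. The single AGGTCA, at chr4:136893083-136893088, is a common word, present in 16.3% of promoters and 15.1% of regions, and no paired half-site with a spacer of 1 (DR1) or 4 (DR4) bases was matched at up to 2 mismatches. The MAF half-site TGCTGAC, the AP-1 sites TGACTCA and TGAGTCA, the CEBP sites TTGCGCAA, TTGTGCAA and TTGCACAA, the E-box CACGTG, the pair GAAANNGAAA and the CTCF core were not matched either, and C1qb matched none of the motifs. These sites occur in 1.19% to 7.15% of promoters (DR1 and DR4 included), and a missing match says only that these letters are not in these windows. Neither promoter was rich in CpG. The ratio of observed to expected CpG was 0.144 in C1qc and 0.253 in C1qb, against a median of 0.384 over all promoters.

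C1qa, the gene of the A chain, had a peak in WT 1_3 alone, at chr4:136898779-136899002 (224 bp), across its start at 136898803. It held 17 tags, 7.54 per background tag, and lay at the 15.4 percentile of its list. At the same level the other 7 libraries would have held 8.48 to 14.0 tags, where 6 to 8 tags are needed. That level comes only from the library that passed the peak call, so it may overstate the others. Why they list no peak was not tested. WT 1_3 had the longest list and the highest depth, and it contributed 38.8% of the 9713 regions seen in 1 library only. With 1 of 8 libraries occupied, no test of occupancy between genotypes can show a difference.

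C1qb, the gene of the B chain, had no peak in any library, at its start or elsewhere in its body, and neither did the intergenic stretches of the window. None of the 3 genes was thus open in every library. Among 21728 genes, 53.7% had a promoter peak in all 8 libraries, 39.6% in none, 1.25% in exactly 7 as C1qc, and 1.40% in exactly 1 as C1qa. Neither of the 2 regions was present in every library of one genotype and absent from the other, a pattern that 0.82% of 72711 consensus regions showed for WT only and 0.285% for KO only. No region of the window could enter the fit over all 8 libraries, which needs a peak in each of them.

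The cluster lies in a long stretch with little else open. Its neighbours Ephb2, 44.1 kb away on the C1qb side, and Epha8, 30.6 kb away on the C1qa side, both Eph receptor genes, had no peak. The nearest other regions were the promoters of Kdm1a, a histone demethylase gene 290 kb away, and Zbtb40, 149 kb away, each open in all 8 libraries. The 445 kb between them held only the 2 C1q regions and exceeded 97.9% of the 47479 gaps between regions open in all libraries (median gap 10.4 kb). Per 100 kb the window held 2.54 merged regions, against a median of 5.75 over the equivalent windows of 21755 protein-coding genes, 29.4% of which had fewer. A window without any region open in all 8 libraries was found for 23.2% of genes.

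**Figure D3:**
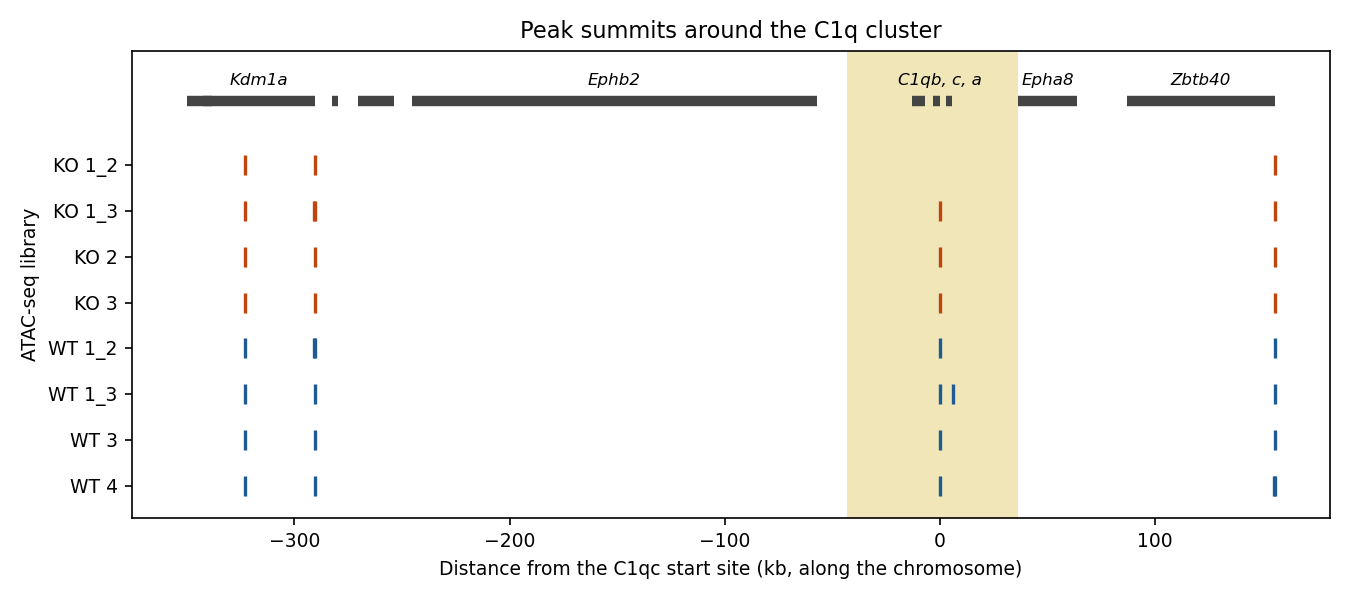
Peak summits (ticks) by library (vertical axis), KO in orange and WT in blue, with protein-coding genes as grey bars on top, against distance in kb from the C1qc start along the chromosome, and the C1q window shaded. Between the Kdm1a and Zbtb40 promoters, open in all 8 libraries, 445 kb hold only the C1qc peak (7 libraries) and the C1qa peak (WT 1_3).

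The rest of the complement system was read from the promoter regions of 41 other genes, of which 18 were open in all 8 libraries, 5 in some and 18 in none. Promoters with no listed peak in any library included those of the C1 proteases C1ra, C1rb and C1s2, and C1s1 was the only 1 of 6 initiation genes open in all. At the C3 and C4 level 3 of 6 were open in all (C3, Cfb and Cfp), in the terminal pathway 1 of 7 (C8g), among the inhibitors reported here 3 of 8 and among receptors 10 of 14. Between genotypes 4 of these 18 promoters were higher in KO, where 6.87% of 12254 promoter regions were called higher and 2.44% lower (5.81% and 7.03% of all 47499 regions). Scaled by background depth instead of library medians, 1.21% of all regions were called higher and 4.19% lower. The list median was a log2 difference of 0.094, against 0.095 over promoter regions.

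The 4 promoters higher in KO were all from the receptor list. Cd93, a phagocyte membrane protein first described as a C1q receptor, had 43, 46, 54 and 47 tags in KO 1_2, 1_3, 2 and 3 and 18, 28, 19 and 12 in WT 1_2, 1_3, 3 and 4. Every KO library was above every WT library, and the log2 difference was 1.55 (SE 0.19, limma adjusted p = 2.96e-08). Itgam and Itgax, the α chains of complement receptors 3 and 4, were higher by 0.53 (SE 0.089, limma adjusted p = 2.29e-05) and 0.55 (SE 0.095, limma adjusted p = 3.83e-05). Scaled by background depth, the limma adjusted p was 0.0430 for Itgam and 0.0383 for Itgax, close to the threshold of 0.05. Itgam tags were 220 to 297 in KO and 171 to 263 in WT, and Itgax tags were 151 to 202 in KO and 105 to 158 in WT, so both overlapped. Itgax encodes CD11c, whose promoter also drives the Cre transgene, so reads of the transgene and the gene cannot be told apart. Cr1l, a complement regulator on cell membranes, was higher by 0.30 (SE 0.11, limma adjusted p = 0.0496) with tags of 133 to 148 in KO and 105 to 174 in WT, and with depth scaling its adjusted p was 0.555. C3, the central component, was not called (0.094, SE 0.11, limma adjusted p = 0.630). Itgb2, the β chain that both integrins share, was not called either (0.11, SE 0.085, limma adjusted p = 0.455).

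**Figure D4:**
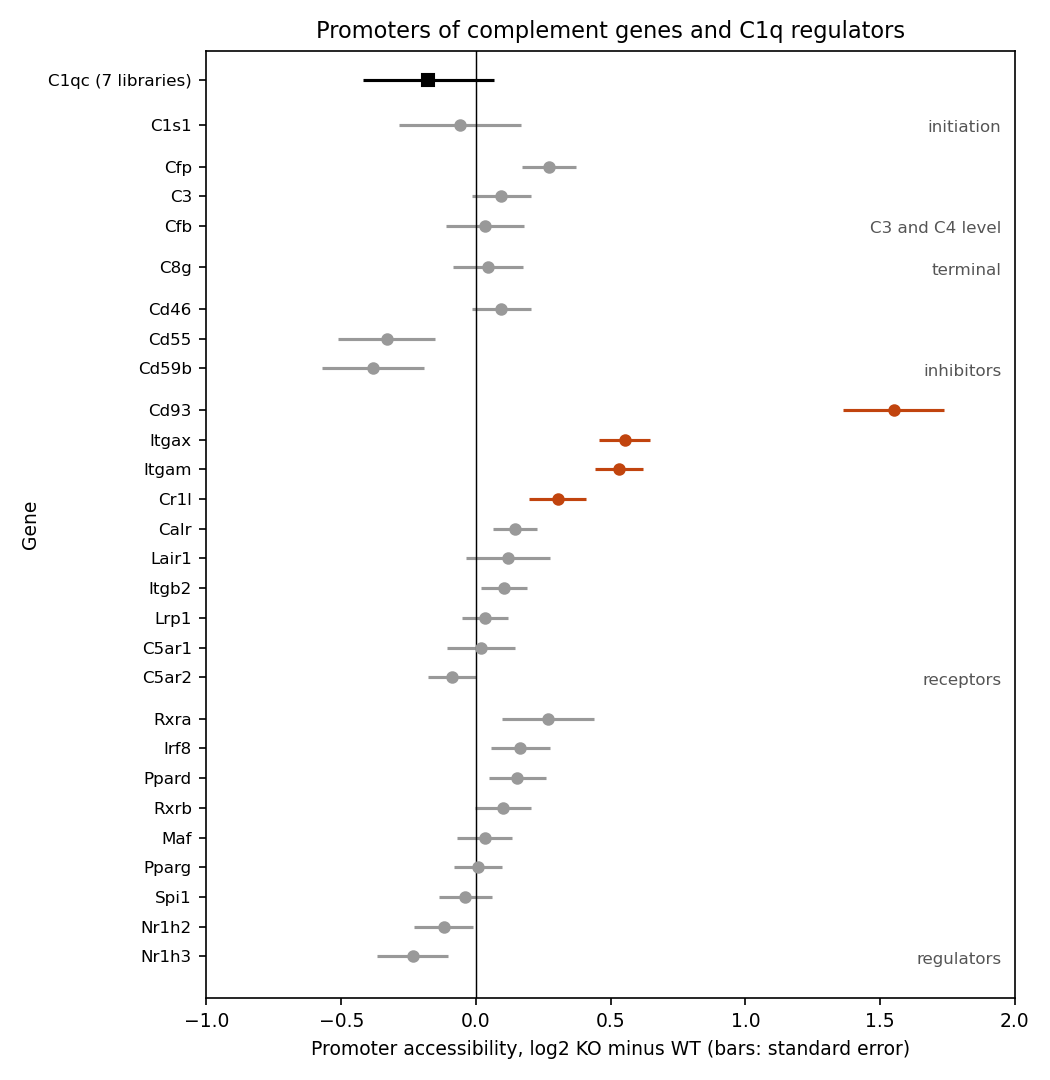
Log2 KO minus WT difference (horizontal axis, points with standard errors) of promoter regions open in all 8 libraries, by gene (vertical axis) and role, with C1qc from the 7 libraries that list it on top (black square). Promoters called higher in KO are orange and the others grey. Cd93 lies at 1.55, Itgax at 0.55, Itgam at 0.53, Cr1l at 0.30 and C1qc at −0.18.

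Myeloid regulators, RXR genes and genes of RXR partners were accessible at their promoters. The 9 reported here were open in all 8 libraries: Spi1 (PU.1), Irf8 and Maf, transcription factors of macrophages, Nr1h3 and Nr1h2, the liver X receptors, Ppard and Pparg, fatty acid receptors, and Rxra and Rxrb. Their log2 differences ran from −0.23 (Nr1h3) to 0.27 (Rxra), and limma called 0 of the 9, with 0 at an unadjusted p under 0.05, where 26.2% of all regions lay under that p and 6.87% of promoter regions were called higher and 2.44% lower. Spi1 had 183 to 216 tags in KO and 218 to 260 in WT, and its log2 difference was −0.039 (SE 0.098, limma adjusted p = 0.840). Its raw tags were lower in every KO library, but per background tag the groups overlapped, at 111 to 192 in KO and 109 to 167 in WT. The Rxra and Rxrb promoters, at 0.27 (SE 0.17, limma adjusted p = 0.331) and 0.10 (SE 0.10, limma adjusted p = 0.583), do not check the deletion, since a promoter can stay open when coding exons are removed.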

How the data were processed

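Peak lists of 8 ATAC-seq libraries (4 KO, 4 WT) were analysed. Groups came from the genotype labels. The authors used cutadapt for trimming, Bowtie2 for alignment to mm10, SAMtools for filtering and MACS3 for calling peaks, library by library. For each peak the deposited lists give the position, a display score (not used), a fold enrichment (a ratio of summit to local background), and −log10 p and −log10 q values. Whole summit tags were recovered from fold and p for 100% of peaks (largest relative error 8.14e-06), so depth is known only as background tags.

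Peaks were merged at 1 shared base, regions seen in 2 or more libraries formed the consensus, and a promoter peak had its summit within 1000 bp of a start. Differences were tested with limma 3.58.1 (R 4.3.3) on log2(tags + 0.5), centred on library medians, over regions with a peak in all 8 libraries, with Benjamini-Hochberg adjusted p under 0.05. The C1qc region is in 7 libraries, so its value comes from the same fit without KO 1_2, and missing libraries set to their smallest called tags were an alternative. The fit was also run on simulated tags. Other tests were exact. Python 3.11.15 with scipy 1.17.1 served the rest. Alternatives covered scaling, constant, stricter q, equal list lengths, overlap, replicate blocks and each library left out. Members, gene lists and tests were chosen with earlier results of these data known. The rule for named genes took the 3 C1q genes with all their regions, their neighbours, and the fixed complement, regulator and marker lists, with values for called promoters and key components. From these lists, 2 genes are not reported here, and the counts leave them out.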

Additional observations from a re-analysis of the deposited data

Results flagged for a closer look

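In 9 groups of 4 libraries tested, 2 held a library far from the other 3, and chance flags about 5% of groups. Both concern WT 4. At the C1qc start WT 4 had 13.4 tags per background tag, against 9.03 to 9.39 in the other WT libraries, a gap of 0.918 of the group's range. At the Cd93 promoter WT 4 had 8.46, against 11.9 to 12.5, a gap of 0.849 of the range.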

How the results depend on the processing

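Of 29 fits run, 14 held no C1q region and so could call none, and the 15 that held C1qc did not call it. The log2 difference at C1qc was −0.15 to −0.20 under other scalings and constants, and −0.36 to 0.045 with each further library left out, the positive value being without KO 2. In the fit with replicates 1_2 and 1_3 averaged and missing libraries at their smallest called tags it was −0.29. Between genotypes, libraries of the same replicate number had weakly correlated deviations from their group means (0.0368 to 0.116). Each still correlated best with its own number among the libraries of the other genotype. The labels do not say if the numbers mark pairs, and the main fit does not use them. A replicate block over the 6 libraries with shared names called 3914 regions higher and 3268 lower, against 2700 and 2723 in the same libraries unblocked (2759 and 3337 in all 8), and held no C1q region. With missing libraries filled in, the C1qc difference in these 6 libraries was −0.038 with the block (limma adjusted p = 0.957) and without it (0.959). The exact permutation of C1qc over 8 libraries needed KO 1_2 to be filled in and, scaled by depth and not by medians, gave −0.37 with p = 0.314. Regions open in every library numbered 0 to 1 with 1 library left out, the 1 being C1qc without KO 1_2. At −log10 q of at least 5, C1qc lost KO 2 and kept 6 libraries. With lists of 60363 peaks each it again lost KO 2, and C1qa dropped out, as it also did without WT 1_3.

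Complement promoters higher in KO numbered 2 in the 6 libraries with missing ones filled in, with the block and without it. Cr1l lost its call in 13 of 18 alternatives. Cd93 and Itgax were called in 18 of 18, and Itgam in 16. The C1q summits hold 9 to 21 tags each, which limits the precision of every C1q value.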
